A study of Homo sapiens with 4 samples.

Results

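Small nucleolar RNAs (snoRNAs) and small Cajal body RNAs are short non-coding RNAs that guide chemical modification of other RNAs, and 185 of their genes were measured on the arrays described here, out of 18640 genes in all. A gene was taken as a member when every probeset averaged for it carried a single gene symbol in the platform annotation and that symbol began with SNORA, SNORD or SCARNA followed by a digit. The RNA came from embryoid bodies, aggregates in which embryonic stem cells begin to differentiate, made from human embryonic stem cells of BG01V, a line known for its variant karyotype. One group had received TBBD at 10 µM, and the other had received only the vehicle, DMSO. The study's title describes TBBD, which is ellagic acid, as inhibiting H3R17 methylation, that is, methylation of arginine in the tail of histone H3, a mark placed by CARM1. Exposure lasted 48 h and generally fell between day 2 and day 4 of embryoid body formation. Each group held 2 arrays of the Affymetrix Human Gene 1.0 ST type, called here TBBD 1 and TBBD 2, and DMSO 1 and DMSO 2, after the replicate numbers in the labels. The labels do not say whether arrays of 1 group came from separate cultures, and all 4 arrays carry RNA of 1 cell line.

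A snoRNA works inside a small ribonucleoprotein particle and recognises its target by base pairing. The C/D class guides 2′-O-methylation of ribose and assembles with the methyltransferase fibrillarin (FBL), NOP56, NOP58 and SNU13, whereas the H/ACA class guides conversion of uridine to pseudouridine and assembles with the pseudouridine synthase dyskerin (DKC1), NHP2, NOP10 and GAR1. Their main targets are ribosomal RNAs in the nucleolus, while small Cajal body RNAs guide the same reactions on the small nuclear RNAs of the spliceosome. Most human snoRNAs are cut out of introns of a host gene, often a gene for a ribosomal protein or translation factor, so a snoRNA and its host messenger start as 1 transcript. SNORD115 and SNORD116 are arrays of C/D copies in the paternally expressed transcript of the Prader-Willi region at 15q11, and SNORD113 and SNORD114 are such arrays in the maternally expressed transcript at 14q32. Because these imprinted copies mostly lack a known ribosomal RNA target, they were kept apart from the other C/D genes.

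The members comprised 60 H/ACA genes, 62 C/D genes, 16 Cajal body RNA genes and 47 genes of SNORD113 to SNORD116, namely 2 of SNORD113, 4 of SNORD114, 20 of SNORD115 and 21 of SNORD116. RefSeq gene lengths had a median of 134 bases for H/ACA genes, 74 for C/D genes, 226.5 for Cajal body RNA genes and 82 for SNORD113 to SNORD116. Such short genes leave little room for probes, and 179 of the 185 members (96.8%) rested on 1 probeset, against 1068 of all 18640 genes (5.73%) and a median of 9 probesets a gene. The exceptions were 5 members on 2 probesets and SNORA15 on 3. Extra probesets did not always add information: both probesets of SNORA10 and of SNORD103A, and 2 of the 3 of SNORA15, held identical values on all 4 arrays. Just 4 members, SCARNA9, SCARNA17, SCARNA9L and SNORA15, therefore had more than 1 distinct measurement.

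The sequences of the host gene starts are shown because the values of several members are set against their hosts further on. Each line gives 40 bases of the gene's strand, 20 before the annotated start and 20 from it, from RefSeq on GRCh38.p14, with capitals marking CTTT, the pyrimidine-rich beginning typical of host genes whose translation follows growth signals. The first is RPL27A, host of SNORA3, at chr11:8682772-8682811 on the plus strand.
RPL27A: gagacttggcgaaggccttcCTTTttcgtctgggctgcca
The next is TAF1D, host of SNORD6, at chr11:93741476-93741515 on the minus strand.
TAF1D: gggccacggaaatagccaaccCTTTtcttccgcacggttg
The next is RPLP2, host of SNORA52, at chr11:809947-809986 on the plus strand.
RPLP2: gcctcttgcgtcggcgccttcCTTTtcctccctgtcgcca
TCP1, host of SNORA20, at chr6:159789583-159789622 on the minus strand, had no CTTT in this window.
TCP1: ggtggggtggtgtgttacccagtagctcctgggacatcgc
Nor did GAS5, host of SNORD74 and 5 other members, at chr1:173869026-173869065 on the minus strand. Other possible starts of GAS5 were not searched, so this window does not show that its transcripts lack such a beginning.
GAS5: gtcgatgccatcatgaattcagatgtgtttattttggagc
Of 45 listed host genes, 39 had an entry in the RefSeq table of starts. CTTT lay on the gene's strand within 10 bases of the start in 21 of these 39 (53.8%), against 2522 of 27305 genes (9.24%), and its reverse complement AAAG lay there in 0 of 39, against 1897 of 27305 (6.95%). A match is a run of letters and shows no factor at work. A gene without a match may still carry CTTT at a start that was not searched.

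Part of 1 member is also listed by RefSeq as a microRNA hairpin, which lets its own sequence be shown. SNORA36A, an H/ACA gene of 132 bases in an intron of DKC1, contains the hairpin of MIR664B at chrX:154768596-154768656 on the plus strand (GRCh38.p14), from base 69 to base 129.
MIR664B: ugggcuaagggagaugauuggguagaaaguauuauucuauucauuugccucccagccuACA
The capitals mark the ACA box, which gives the class its name and stands here, as in the class generally, 3 bases from the end of the snoRNA. SNORA36A itself was dim and flat, with 5.91 and 5.96 in TBBD 1 and TBBD 2 against 5.96 and 5.92 in DMSO 1 and DMSO 2, all on the log2 scale of the deposited signals.

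Levels are given on that log2 scale, where a step of 1 is a doubling. They describe probesets, and probes of different genes bind unequally well, so an order of levels between genes is not an order of molecules. The members ranged from 5.12 to 13.1 with a median of 6.41, against 3.45 to 13.2 and a median of 6.35 over all genes. Genes on 1 probeset, members among them, had a median of 5.58. Medians were 6.65 for H/ACA, 6.42 for C/D, 6.69 for Cajal body RNAs and 5.57 for SNORD113 to SNORD116. As a guide to what no expression looks like, 371 olfactory receptor genes had a median of 5.40 and a 95th percentile of 5.66. Above that percentile lay 56 of 60 H/ACA genes, 58 of 62 C/D genes, 15 of 16 Cajal body RNA genes and 21 of 47 SNORD113 to SNORD116 genes, against 74.8% of all genes. Of the genes on 1 probeset, 45.0% did.

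**Figure D1:**
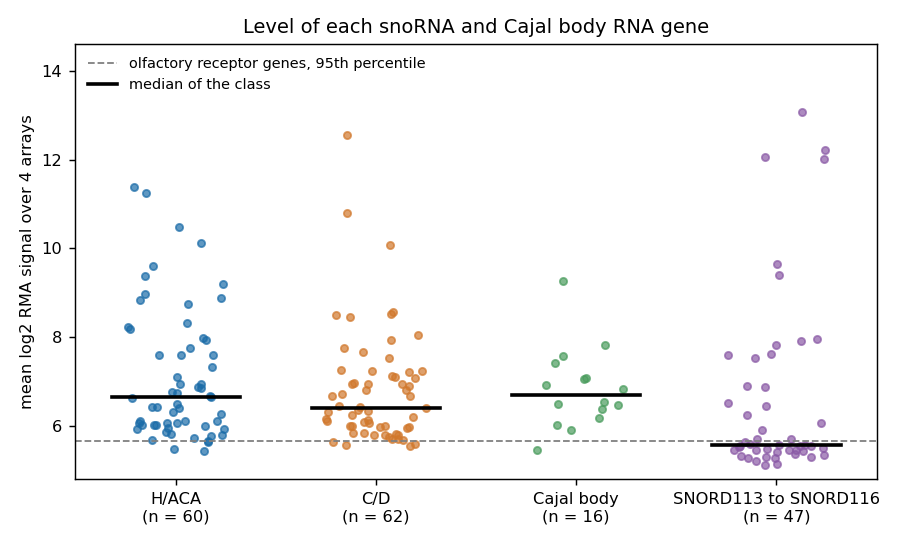
Mean log2 signal over the 4 arrays (vertical axis) of each of the 185 members, by class, with 1 point a gene, a bar at the class median and a dashed line at the 95th percentile of olfactory receptor genes. Most H/ACA, C/D and Cajal body RNA genes lie above the dashed line, whereas SNORD113 to SNORD116 divide into a set near 5.5 and a set that reaches 13.1.

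The brightest H/ACA genes were SNORA71D at 11.4, SNORA3 at 11.3 and SNORA23 at 10.5. Among C/D genes SNORD13 led at 12.6, followed by SNORD41 at 10.8 and SNORD14C at 10.1. SNORD13 encodes U13, which acts in acetylation of the small ribosomal subunit RNA and does not guide methylation, and SNORD14C encodes a copy of U14, needed to process that RNA in yeast. The brightest Cajal body RNAs were SCARNA12 at 9.27, SCARNA7 at 7.83 and SCARNA10 at 7.57, the last of which, also known as U85, guides both kinds of modification on U5 small nuclear RNA.

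The imprinted copies were divided by family. All 21 SNORD116 genes lay above the olfactory receptor percentile, with levels from 5.70 to 13.1 and a median of 7.60. None of the 20 SNORD115 genes did, with levels from 5.12 to 5.63, nor did the 2 SNORD113 genes (5.15 and 5.37) or the 4 SNORD114 genes (5.27 to 5.55). SNORD116-15, SNORD116-14 and SNORD116-20 were the brightest copies, at 13.1, 12.2 and 12.1. Other genes of the 2 host transcripts were measured too. SNRPN, the gene at the head of the 15q11 transcript, had 6.94 and 6.70 in TBBD 1 and TBBD 2 against 6.62 and 6.75 in DMSO 1 and DMSO 2, and MEG3, the non-coding gene at the head of the 14q32 transcript, had 5.56 and 5.44 against 5.68 and 5.72. Copies of SNORD115 and of SNORD116 are nearly alike in sequence, so a probeset may also bind neighbouring copies, and the values of single copies are uncertain for that reason.

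**Figure D2:**
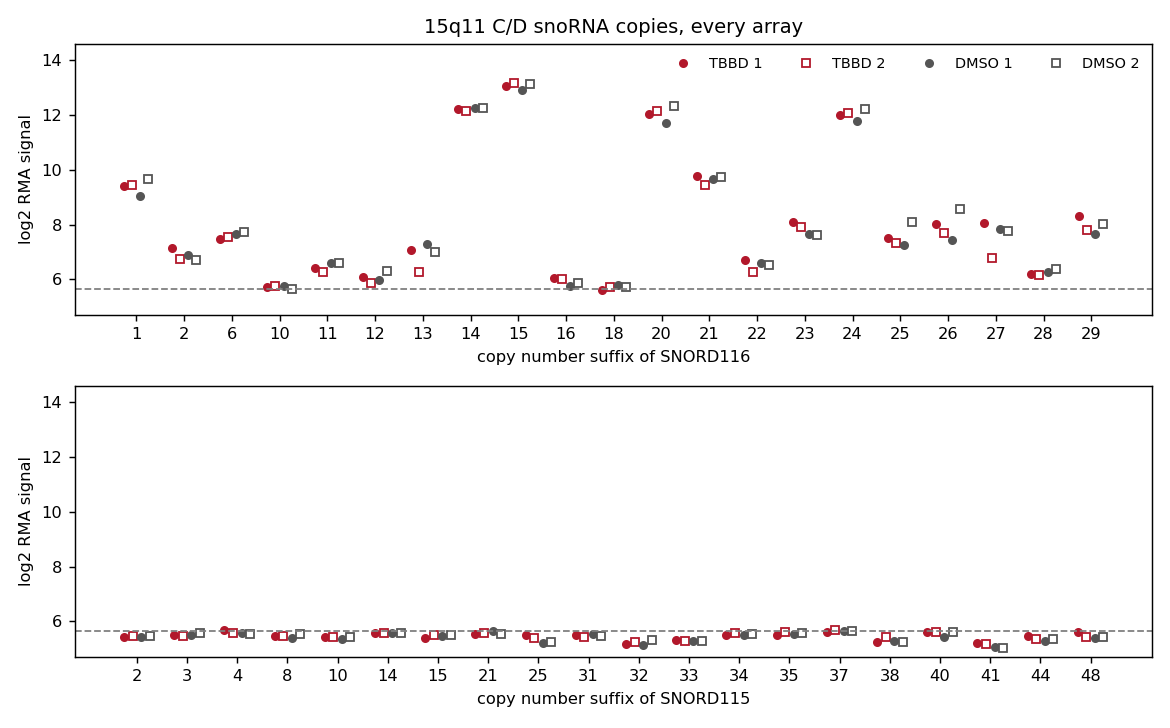
Log2 signal (vertical axis) of each SNORD116 copy (upper panel) and each SNORD115 copy (lower panel) on every array, with TBBD in red left of DMSO in grey, and the dashed line at the 95th percentile of olfactory receptor genes. SNORD116 copies reach 13.1, and all SNORD115 means lie between 5.12 and 5.63.

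The comparison named by the study, TBBD against DMSO, called no member. By limma's moderated test 0 of 18640 genes passed an adjusted p of 0.05, and 139 genes (0.746%) had an unadjusted p under 0.05. The members held 0 of the former and 2 of the latter, SNORD74 and SNORD116-23. Median differences, TBBD minus DMSO, were 0.05 for H/ACA, 0.0033 for C/D, 0.06 for Cajal body RNAs and 0.02 for SNORD113 to SNORD116, against -0.0035 over all genes. Higher in TBBD were 35 of 60, 32 of 62, 11 of 16 and 26 of 47 genes of these classes, against 48.8% of all genes. The H/ACA median was -0.19 without DMSO 1 and 0.21 without DMSO 2. A missed threshold does not show equality. The intervals come from a fit with group only, so a difference between the replicate numbers counts as spread and widens them. In SNORA20, TBBD 1 minus DMSO 1 was 0.22 and TBBD 2 minus DMSO 2 was -0.26, and its interval ran from -1.93 to 1.89. The 95% interval of the difference stayed within a 2-fold change in both directions for 156 of 185 members and reached 2-fold for 29, of which 21 were H/ACA genes. Only 150 of the 185 lay above the olfactory receptor percentile, and a narrow interval near background says little about TBBD.

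SNORD74, a C/D snoRNA from an intron of the non-coding gene GAS5, had the smallest p of the members. Its signal was 8.14 and 8.19 in TBBD 1 and TBBD 2, against 8.80 and 8.70 in DMSO 1 and DMSO 2. Both TBBD arrays lay below both DMSO arrays, and the gap was several times the spread within a group. The difference was -0.59 ± 0.12 (SE, 2 arrays a group), with a 95% interval from -0.88 to -0.29, and limma gave an unadjusted p of 0.00375 and an adjusted p of 1.

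GAS5 carried 6 members, SNORD44, SNORD74, SNORD75, SNORD77, SNORD78 and SNORD79, more than any other listed host. The differences of all 6 were negative, from -0.59 to -0.11 with a median of -0.23, where 48.8% of all genes were higher in TBBD. The groups did not overlap in 2 of the 6, both lower in TBBD, against 10.4% of all genes. In SNORD44 the gap came from 1 array: it had 6.74 and 6.76 in TBBD 1 and TBBD 2, against 7.43 in DMSO 1 and 6.72 in DMSO 2. SNORD75 and SNORD78 had the same shape, with DMSO 1 at 6.75 and 7.46, while their other arrays lay from 5.91 to 6.29 and from 6.68 to 6.94. SNORD77 was near the olfactory receptor percentile, at 5.63 and 5.54 in TBBD 1 and TBBD 2 against 5.71 and 5.73 in DMSO 1 and DMSO 2. These 6 RNAs come from 1 transcript and are not independent of each other, and no level of GAS5 itself was available from probesets with a single symbol.

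SNORD116-23 had 8.11 and 7.91 in TBBD 1 and TBBD 2, against 7.64 and 7.61 in DMSO 1 and DMSO 2. The TBBD arrays lay above, by 0.39 ± 0.13 (SE), with an unadjusted p of 0.0286 and an adjusted p of 1 by limma. Other copies of the same array went the other way: SNORD116-11 differed by -0.27, with 6.39 and 6.25 in TBBD against 6.59 and 6.59 in DMSO, and SNORD116-6 by -0.20, with 7.46 and 7.53 in TBBD against 7.66 and 7.73 in DMSO. Over the 21 SNORD116 genes the median was -0.08, with 9 higher and 12 lower in TBBD.

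Without overlap between the groups were 42 members, 26 higher and 16 lower in TBBD, against 20.9% of all genes (10.5% higher and 10.4% lower). The H/ACA class held 8 higher and 0 lower, C/D 9 and 10, Cajal body RNAs 1 and 1, and SNORD113 to SNORD116 8 and 5. The largest of the H/ACA genes was SNORA10, from an intron of the ribosomal protein gene RPS2, with 9.18 and 9.20 in TBBD 1 and TBBD 2 against 8.18 in DMSO 1 and 8.98 in DMSO 2. Its difference of 0.61 ± 0.28 (SE) was set mainly by DMSO 1. SNORA80 differed by 0.25, and the C/D genes SNORD63 and SNORD58A by 0.23 and 0.19. SNORD14E, a U14 copy from an intron of HSPA8, had 6.51 and 6.65 in TBBD 1 and TBBD 2 against 6.82 and 7.25 in DMSO 1 and DMSO 2, a difference of -0.46 ± 0.18 (SE). SNORD14C, the brighter U14 copy in the same host, differed by 0.15. Among Cajal body RNAs SCARNA9L differed by 0.27 and SCARNA12 by -0.09. None of these passed the adjusted test.

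The 2 replicate numbers gave different answers to the same comparison. With number 1, TBBD 1 minus DMSO 1 had a median of 0.12 over H/ACA genes (48 higher, 12 lower) and of 0.23 over Cajal body RNA genes (15 higher, 1 lower), where 45.2% of all genes were higher and their median was -0.02. With number 2, TBBD 2 minus DMSO 2 had a median of -0.08 over H/ACA genes (23 higher, 36 lower) and of -0.11 over Cajal body RNA genes (1 higher, 15 lower), where 53.2% of all genes were higher and their median was 0.01. The C/D medians kept 1 sign, at -0.05 and -0.02. For SNORD113 to SNORD116 the medians were 0.07 and -0.000566.

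Higher with number 1 and lower with number 2 were 31 of 60 H/ACA genes and 14 of 16 Cajal body RNA genes, against 13 of 62 C/D genes, 16 of 47 SNORD113 to SNORD116 genes and 23.6% of all genes. The array with the lowest signal was DMSO 1 for 36 of 60 H/ACA genes and 12 of 16 Cajal body RNA genes, against 16 of 62 C/D genes, 18 of 47 SNORD113 to SNORD116 genes and 23.0% of all genes. SNORA21, from an intron of the ribosomal protein gene RPL23, had the largest difference of all members with number 1: TBBD 1 had 8.18 against 7.02 in DMSO 1, and TBBD 2 had 8.76 against 9.0 in DMSO 2. SCARNA10 had 7.67 in TBBD 1 against 6.85 in DMSO 1, and 7.88 in TBBD 2 against 7.91 in DMSO 2. In both genes DMSO 1 lay apart from 3 arrays that were closer together. DMSO 1 also stood apart in the 4 mesoderm markers TBXT, EOMES, MESP1 and MIXL1, whose mean log2 level was 6.29 in TBBD 1 against 7.41 in DMSO 1, and 6.09 in TBBD 2 against 6.28 in DMSO 2; their part in the pattern was not tested. The difference between the replicate numbers in the response to TBBD was not tested, since 1 array stood for each combination.

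**Figure D3:**
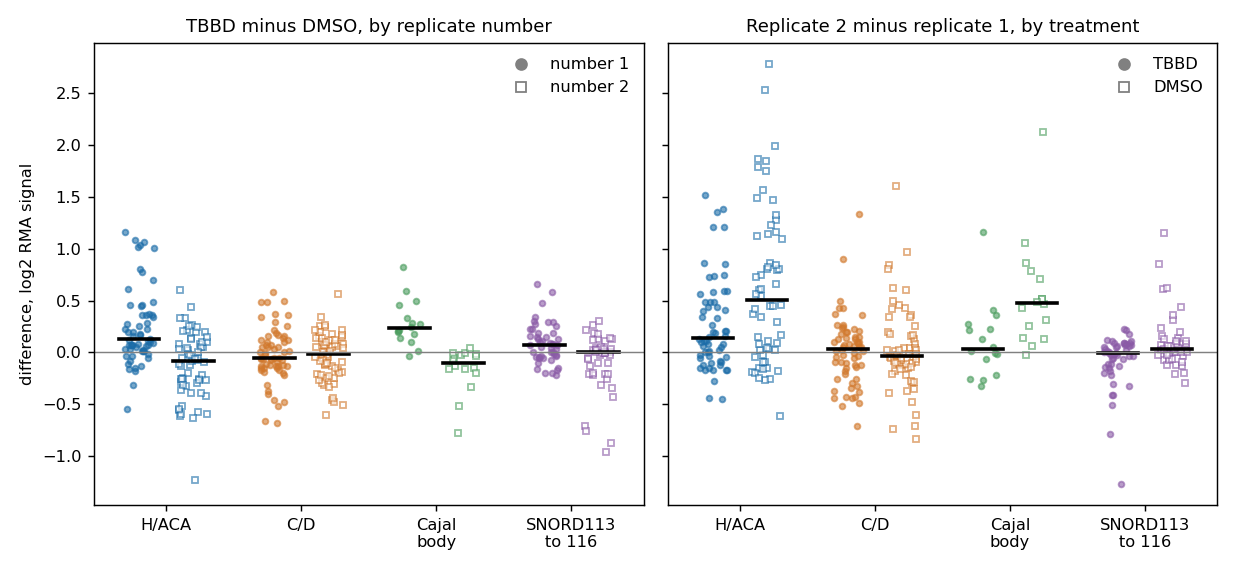
Differences in log2 signal (vertical axis) of every member by class, TBBD minus DMSO within each replicate number (left panel) and replicate 2 minus replicate 1 within each treatment (right panel), with 1 point a gene and a bar at the median. H/ACA and Cajal body RNA medians change sign between numbers on the left (0.12 and -0.08 for H/ACA), and on the right they are higher in DMSO (0.50 and 0.48) than in TBBD (0.14 and 0.03).

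The second comparison set the replicate numbers against each other, with TBBD and DMSO together. Most of the members it called were H/ACA genes. Between replicate 2 and replicate 1, limma called 1001 of 18640 genes at an adjusted p of 0.05 (5.37%), 624 higher in replicate 2 (3.35%) and 377 lower (2.02%). The members held 19 of these calls, 14 of 60 H/ACA genes, 3 of 16 Cajal body RNA genes, 2 of 62 C/D genes and 0 of 47 SNORD113 to SNORD116 genes, and all 19 were higher in replicate 2. At an unadjusted p under 0.05 there were 30 higher and 1 lower H/ACA genes, 10 and 10 C/D genes, 6 and 0 Cajal body RNA genes, and 1 and 3 of SNORD113 to SNORD116, against 10.4% higher and 10.6% lower over all genes. All 19 called members rest on 1 probeset, so their values stay the same when single probesets are tested. For them that fit differs only in the variance pooled over all features and in the number of features tested. When single probesets were tested in place of genes, 0 of 247035 probesets passed, and the smallest adjusted p was 0.0655 by limma. An unadjusted p under 0.05 was seen in 30546 probesets (12.4%), among them 23 of the 192 probesets on members. Without DMSO 1 the test called 436 genes and 11 members, without TBBD 1 it called 534 genes and 24 members, and without TBBD 2 it called 368 genes and 18 members. In each such fit 1 number keeps a single array, which is assumed to vary like the arrays of the other number.

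The median difference, replicate 2 minus replicate 1, was 0.38 over H/ACA genes (47 higher, 13 lower), 0.29 over Cajal body RNA genes (13 higher, 3 lower), 0.01 over C/D genes (32 higher, 30 lower) and 0.02 over SNORD113 to SNORD116 (28 higher, 19 lower), against -0.0024 over all genes, of which 49.4% were higher. Without overlap between the numbers were 32 higher and 6 lower H/ACA genes, 16 and 15 C/D genes, 9 and 1 Cajal body RNA genes, and 10 and 6 of SNORD113 to SNORD116, against 51.0% of all genes, 25.1% higher and 25.9% lower. With 1 array left out, the H/ACA median lay between 0.20 and 0.46 and was lowest without DMSO 1, and the Cajal body median lay between 0.09 and 0.47, also lowest without DMSO 1. Within the DMSO arrays alone the medians were 0.50, 0.48, -0.04 and 0.03 in the same order of classes, and within the TBBD arrays alone 0.14, 0.03, 0.04 and -0.01. The H/ACA median was positive under both treatments, and the Cajal body median was near 0 under TBBD. A difference of at least 2-fold was seen upward in 11 members, against 163 of all genes (0.874%), and downward in 0, against 0.295% of all genes. These 11 were 9 H/ACA genes, SNORD6 and SCARNA4.

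SNORA42, an H/ACA gene now named SNORA80E, differed most. It had 10.0 in TBBD 2 and 10.4 in DMSO 2, against 8.67 in TBBD 1 and 7.63 in DMSO 1. The replicate 2 arrays lay above by 2.07 ± 0.31 (SE), with an adjusted p of 0.0131 by limma.

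SNORA3, the second brightest H/ACA gene and now named SNORA3A, had 11.9 in TBBD 2 and 12.5 in DMSO 2, against 10.7 in TBBD 1 and 9.93 in DMSO 1. It was higher in replicate 2 by 1.87 ± 0.27 (SE; adjusted p of 0.0116 by limma). In SNORA42 and SNORA3 alike, DMSO 1 was the lowest array and DMSO 2 the highest, so the spread between the DMSO arrays exceeded that between the TBBD arrays.

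SNORA20 separated the numbers more evenly, with 8.28 in TBBD 2 and 8.54 in DMSO 2 against 6.89 in TBBD 1 and 6.67 in DMSO 1. Its difference was 1.63 ± 0.13 (SE; adjusted p of 0.00137 by limma). SNORA60 had 7.54 in TBBD 2 and 7.34 in DMSO 2 against 6.02 in TBBD 1 and 6.11 in DMSO 1, a difference of 1.38 ± 0.11 (SE; adjusted p of 0.00138 by limma). In both genes the arrays of 1 number lay close together, with a wide gap between the numbers.

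The other H/ACA genes called were SNORA7B (1.35), SNORA38B (1.25), SNORA52 (1.03), SNORA75 (0.97), SNORA38 (0.91), SNORA37 (0.88), SNORA14B (0.85), SNORA28 (0.83), SNORA2A (0.52) and SNORA5C (0.44). Several belong to pairs of near copies, such as SNORA38 and SNORA38B, whose probes may not tell the copies apart. Probe sequences were not examined, and the mean levels of SNORA38 and SNORA38B were 6.96 and 9.60. SNORA23 and SNORA21 were also over 2-fold higher, at 1.26 and 1.28, but missed the threshold with adjusted p-values of 0.0580 and 0.0712 by limma. Of the H/ACA genes lower in replicate 2 without overlap, SNORA56 and SNORA66 differed most, by -0.36 and -0.35, and neither passed. The value of SNORA66 rested on DMSO 2, which had 6.48 against 7.08 in TBBD 2, 7.18 in TBBD 1 and 7.09 in DMSO 1, and without DMSO 2 it was -0.05.

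Of the 3 Cajal body RNAs called, SCARNA4 had 7.48 in TBBD 2 and 8.26 in DMSO 2 against 6.32 in TBBD 1 and 6.13 in DMSO 1. Its difference was 1.64 ± 0.23 (SE; adjusted p of 0.0109 by limma). SCARNA1 and SCARNA22 were higher by 0.60 and 0.54. SCARNA12, the brightest of the class, was flat at -0.0052, with all 4 arrays between 9.19 and 9.35, and SCARNA16 differed by -0.15. SCARNA9 and SCARNA17, which have 2 distinct probesets each, differed by 0.38 and 0.16 and were not called.

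The 2 C/D genes called were SNORD6 and SNORD53. SNORD6 had 8.17 in TBBD 2 and 8.37 in DMSO 2 against 6.84 in TBBD 1 and 6.77 in DMSO 1, a difference of 1.47 ± 0.11 (SE; adjusted p of 0.0011 by limma). SNORD53 had 9.01 in TBBD 2 and 8.87 in DMSO 2 against 8.11 in TBBD 1 and 8.06 in DMSO 1, a difference of 0.85 ± 0.10 (SE; adjusted p of 0.00688 by limma). No C/D gene passed in the other direction, where SNORD75 and SNORD52 had the largest differences without overlap, at -0.55 and -0.50. The 6 GAS5 members all had negative differences, from -0.55 to -0.02 with a median of -0.32, and 0 of them passed. DMSO 1, which was high in SNORD44, SNORD75 and SNORD78, enters both this comparison and that with TBBD. Within DMSO the median of the 6 was -0.44, with 1 higher in replicate 2. Within TBBD it was -0.18, with 2 higher.

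**Figure D4:**
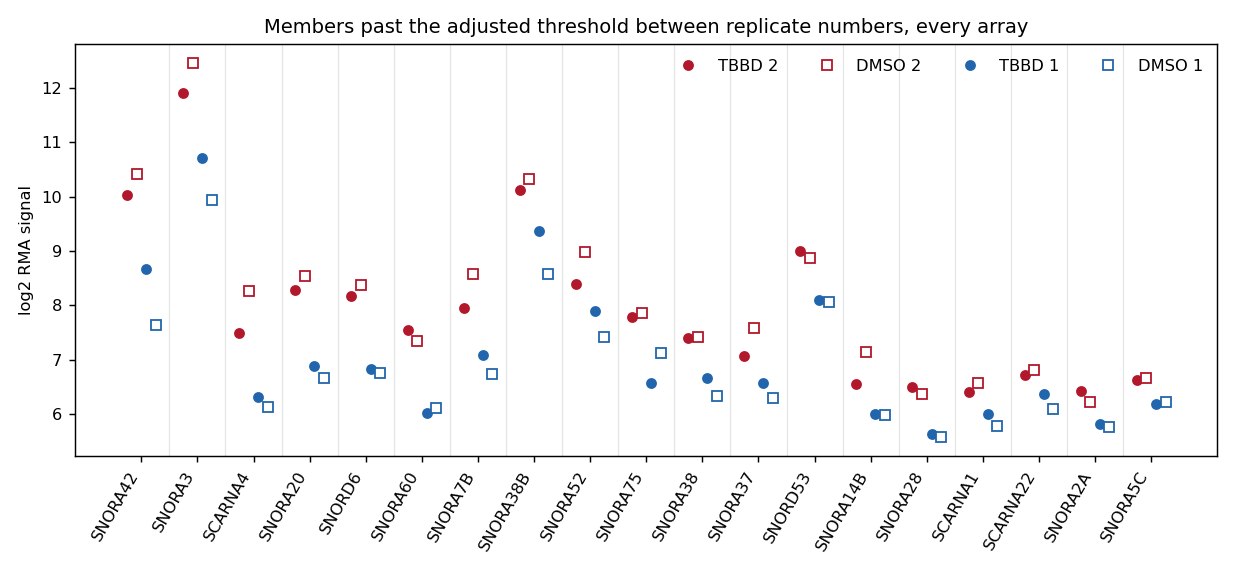
Log2 signal (vertical axis) on every array of the 19 members past an adjusted p of 0.05 between replicate numbers, replicate 2 in red left of replicate 1 in blue, with TBBD as filled circles and DMSO as open squares. In every gene both replicate 2 arrays lie above both replicate 1 arrays, and DMSO 1 is the lowest array for 16 of the 19.

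A gene called higher in replicate 2 has its lowest value in TBBD 1 or DMSO 1. Among the 19 called members it was DMSO 1 in 16 and TBBD 1 in 3, against DMSO 1 in 319 of all 624 genes called higher (51.1%). The difference within DMSO ranged from 0.45 to 2.79 with a median of 1.23, and the difference within TBBD from 0.36 to 1.52 with a median of 0.86. It was larger within DMSO for 14 of the 19. In SNORD116 the numbers were mixed: SNORD116-20 and SNORD116-1 differed by 0.36 and 0.33, and SNORD116-27 and SNORD116-13 by -0.68 and -0.54. SNORD116-27 owed its difference to TBBD 2, which had 6.79, against 8.06 in TBBD 1, 7.84 in DMSO 1 and 7.75 in DMSO 2.

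The hosts of these RNAs had their own values on the same arrays. Of the 185 members, 74 had a host in the list used, and the host was measured for 52 of them, in 37 hosts. Replicate 2 minus replicate 1 had a median of -0.14 over these hosts, from -0.52 to 0.38, with 8 higher and 29 lower. Of all genes, 49.4% were higher. By limma's adjusted test 2 of the 37 hosts were called, against 5.37% of all genes. The 20 H/ACA genes with a measured host had a median of 0.40, and their 16 hosts had a median of -0.17, and 16 of the 20 genes lay above their own host. For the 27 C/D genes the median was 0.02, against -0.12 over their 20 hosts, and 19 lay above.

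Of the called members, 6 had a measured host, and the host differences lay between -0.52 and 0.04. SNORD6 was higher by 1.47 and TAF1D, a subunit of an RNA polymerase I initiation factor, was lower by 0.52, with values of 7.48 in TBBD 2 and 7.70 in DMSO 2 against 8.10 in TBBD 1 and 8.12 in DMSO 1 (adjusted p of 0.045 by limma). SNORA3 was higher by 1.87, while RPL27A, a ribosomal protein of the large subunit, differed by 0.04. The other listed member in RPL27A, SNORA45, differed by -0.10. SNORA20 was higher by 1.63, while TCP1, a subunit of the cytosolic chaperonin, differed by -0.38. The other listed member in TCP1, SNORA29, differed by -0.13. SNORA52 was higher by 1.03, while RPLP2, a ribosomal stalk protein, differed by -0.21. The starts of RPL27A, TAF1D and RPLP2 shown above carry CTTT and that of TCP1 does not.

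Among hosts of 3 or more members, the nucleolin gene NCL differed by -0.03, and the median of its members SNORA75, SNORD20 and SNORD82 was 0.38. RPL23A, with 4 C/D members, differed by -0.11, and their median was -0.09. SNHG16 hosted 3 members with a median of -0.08 and had no value of its own.

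**Figure D5:**
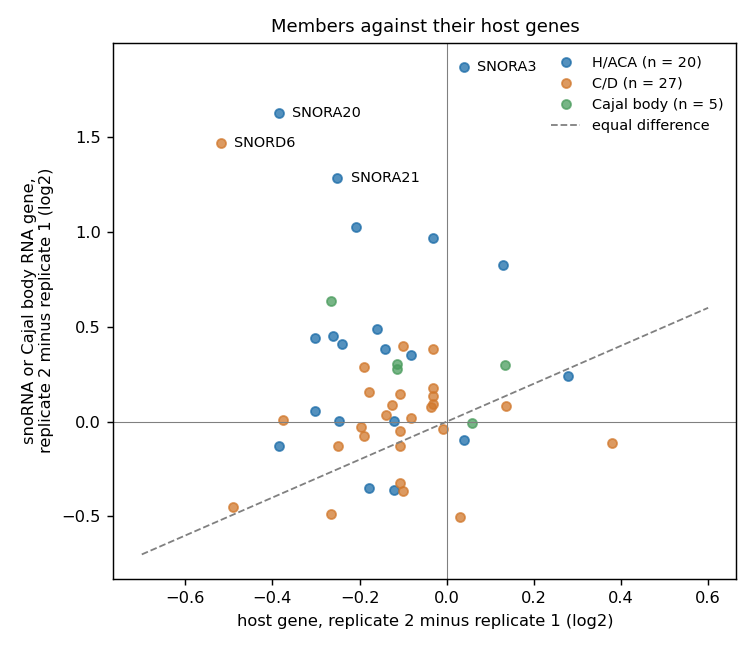
Replicate 2 minus replicate 1 in log2 signal of each member with a measured host (vertical axis) against the same difference of its host gene (horizontal axis), with 1 point a member, coloured by class, and a dashed line where both are equal. Host differences lie between -0.52 and 0.38, and 16 of 20 H/ACA members lie above the dashed line.

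The genes for the proteins of the particles were measured on several probesets each. All 8 core proteins had negative differences between TBBD and DMSO, from -0.21 for GAR1 to -0.02 for NOP10, and 0 of 8 had an unadjusted p under 0.05. The sign held with number 1, where 0 of 8 were higher in TBBD 1, against 45.2% of all genes, and not with number 2, where 6 of 8 were higher in TBBD 2, against 53.2% of all genes, among them NOP10 by 0.21 and DKC1 by 0.20. FBL, the methyltransferase, had 9.54 and 9.27 in TBBD 1 and TBBD 2 against 9.67 and 9.46 in DMSO 1 and DMSO 2, a difference of -0.16 ± 0.15 (SE). Between replicate numbers the C/D proteins FBL, NOP56, NOP58 and SNU13 differed by -0.23, -0.14, -0.35 and -0.05, and the H/ACA proteins DKC1, NHP2, NOP10 and GAR1 by -0.12, -0.24, 0.04 and 0.02, with 0 of 8 past the adjusted threshold of limma. Of 10 assembly factors 1 passed, RUVBL1, an ATPase of the assembly complex, which was lower in replicate 2 by 0.58 (adjusted p of 0.033). Of 9 Cajal body and telomerase proteins 0 passed: COIL, which scaffolds the Cajal body, differed by 0.08, and WRAP53, which brings RNAs to it, by -0.39. Of 19 nucleolar ribosome biogenesis genes 2 passed, both lower in replicate 2, BOP1 by 0.62 and TAF1D by 0.52. Over all genes 5.37% passed, and 2.02% were lower in replicate 2.

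Some marker genes of cell types differed between replicate numbers as well. Over all genes, 3.35% were called higher in replicate 2 and 2.02% lower. All 4 genes of the feeder or stromal list were called higher, DCN by 3.21, COL3A1 by 2.16, COL1A1 by 1.66 and LUM by 1.37. Their mean log2 level was 10.7 in TBBD 2 and 10.6 in DMSO 2, against 8.55 in TBBD 1 and 8.52 in DMSO 1. Of the 5 endoderm and fetal liver genes 3 were called higher, AFP by 2.43, TTR by 1.55 and APOA1 by 0.57, and the list's mean log2 level was 6.80 in TBBD 2 and 6.65 in DMSO 2, against 5.79 in TBBD 1 and 5.68 in DMSO 1. Of the 5 neural genes 1 was called higher, STMN2 by 0.92. Of the 5 measured genes of undifferentiated cells POU5F1 was called lower, by 0.84, and SOX2 higher, by 1.29. POU5F1, which marks undifferentiated cells, had 6.60 in TBBD 2 and 7.20 in DMSO 2 against 7.73 in TBBD 1 and 7.75 in DMSO 1, above the olfactory receptor percentile on every array. The erythroid genes HBZ and HBE1 stayed between 5.24 and 5.61 on all arrays, and the 4 mesoderm genes gave 0 calls. Their part in the differences of the snoRNAs was not tested, and in such bulk RNA fewer cells of a type and less RNA per cell cannot be told apart.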

How the data were processed

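Trizol was used to extract total RNA, and the labelling with biotin followed the array maker, per the labels' protocols. The authors deposited log2 values made with RMA, per the submitters' processing notes, with the log2 scale read from the values. For the RMA version, its settings and the build behind the array design, the sources used here give nothing. Of 247312 probesets, 277 with a cell under 0.1, a placeholder far below any signal, were left out. Values of the probesets with 1 symbol in the platform annotation were averaged per gene and array. Of the members' symbols, 180 were current in RefSeq (GRCh38.p14) and 5 were updated. A further 79 probesets that name a snoRNA beside other symbols stayed out.

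TBBD and DMSO (2 arrays each), and replicates 2 and 1 (2 arrays each), were compared by limma's moderated, two-sided test on all 18640 genes, called at 0.05 after Benjamini-Hochberg adjustment over the whole table. The number of arrays limits the precision. As the labels name no separate cultures, the p-values reflect only how far these samples spread, which may be technical. The members and lists were chosen with earlier results of these data known. Named were, per class, the 3 brightest members, up to 2 a direction with the largest difference without overlap in each comparison, every member past the threshold, the 3 members on the most probesets, SNORD74, the core proteins, COIL, WRAP53 and hosts of 3 or more members, of which 1 is not reported here; others were chosen after their values were seen. Hosts come from a hand-written list, in which each pair was checked for the member lying inside the host in RefSeq. Sequences are RefSeq's, on GRCh38.p14. Alternatives were other normalization, filters on dim genes, the median over probesets, genes on at least 2 or 3 probesets, single probesets, an intensity trend, a robust prior, placeholder cells at 0, the replicate number or the treatment as a block, another threshold, and each array left out. The fit was tested on simulated data, where it recovered 40.3% of 67 changes of 1 on the log2 scale. The simulation held no difference between replicate numbers, which the real arrays do carry, so this share does not apply to them directly. Versions were limma 3.58.1 in R 4.3.3, and pandas 2.3.3, numpy 2.4.6 and matplotlib 3.10.9 in Python 3.11.15.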

Additional observations from a re-analysis of the deposited data

Results flagged for a closer look

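In 3 of the 4 classes the median difference between TBBD and DMSO changed sign between the replicate numbers. Over the 60 H/ACA genes the median was 0.12 for TBBD 1 minus DMSO 1 and -0.0825 for TBBD 2 minus DMSO 2. Over the 16 Cajal body RNA genes it was 0.23 with number 1 and -0.11 with number 2. Over the 47 genes of SNORD113 to SNORD116 it was 0.0711 with number 1 and -0.000566 with number 2, so that the second value is hardly a direction. With 1 array for each combination of treatment and number, the difference between the numbers was not tested.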

How the results depend on the processing

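There were 2 arrays a group, which limits precision, and members near the olfactory receptor level have little signal over background. No called result changed direction under these alternatives. TBBD minus DMSO gave 0 adjusted calls in every setting by limma. Its 2 members at an unadjusted p under 0.05 became 1 with single probesets, 0 among genes on at least 3 probesets, which leave only SNORA15, and 2 to 20 with 1 array left out, when 0.735% to 1.72% of all genes had one. Arrays of the same number deviated together from their group means (r of 0.566 over 18640 genes and 0.667 over 185 members), but 2 pairs cannot show that the numbers pair the samples. With the replicate number as a block, 8 members and 496 of all genes (2.66%) had an unadjusted p under 0.05, and 0 passed the adjusted threshold.

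Between replicate numbers the 1001 genes called became 1798 at an adjusted p under 0.1, 653 with the treatment as a block, 0 with single probesets and 368 to 685 with 1 array left out. The 19 members called became 29, 14, 0 and 11 to 24 in the same settings, and 0 among genes on at least 3 probesets. The 61 members at an unadjusted p under 0.05 became 23 with single probesets, 0 on at least 3 probesets and 39 to 64 with 1 array left out. The 23 were among 192 probesets on members, where 12.4% of all probesets had an unadjusted p under 0.05 by limma. With single probesets, a member on 1 probeset keeps its values, and only the pooled variance and the number of tests differ. The causes of the other shifts were not tested, except that few members remain on at least 3 probesets.

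Leaving out 1 array moved the median of TBBD minus DMSO to between -0.0536 and 0.0769 over all members, -0.19 and 0.21 for H/ACA, -0.0298 and 0.0215 for C/D, and -0.15 and 0.35 for Cajal body RNAs. On at least 2 probesets it was 0.12 over all members and 0.37 for H/ACA, where 2 genes remain, SNORA10 and SNORA15. For SNORD113 to SNORD116 it was -0.0826 after the milder filter on dim genes, -0.078 after the stricter one and, in a setting chosen after seeing the data, -0.0826 above the olfactory receptor level, where only SNORD116 remains. Replicate 2 minus replicate 1 over all members was 0.16 and 0.22 after the milder and stricter filter, 0.0906 above the olfactory receptor level, and 0.0416 to 0.0803 with 1 array left out; for SNORD113 to SNORD116 it was -0.0484 after the stricter filter. The filters, by construction, raised median levels to 6.85 and 7.60 for H/ACA, 6.81 and 7.13 for C/D, 6.99 under the stricter one for Cajal body RNAs, and 7.61 and 7.87 for SNORD113 to SNORD116, whose median level was 5.57 to 5.59 with 1 array left out. All 19 calls between numbers were lost with single probesets, 7 in at least 1 other setting with all arrays, and 11 in at least 1 with an array left out.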

Other observations

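Other short structured RNA genes were on the same arrays, as 19 genes chosen after their values were seen: 12 genes whose symbols begin with RNU, mostly small nuclear RNAs, 3 vault RNA genes, RMRP, RPPH1, TERC and RNY4. Replicate 2 minus replicate 1 had a median of 0.30 over the 19, with 15 higher and 4 lower, against a median of -0.0024 over all genes, and 5 were called higher by limma, against 3.35% of all genes. RNU4ATAC, the U4 RNA of the minor spliceosome, had 10.7 in TBBD 2 and 10.7 in DMSO 2 against 9.56 in TBBD 1 and 8.92 in DMSO 1, a difference of 1.42 (adjusted p of 0.0103 by limma). RNU4-2, a U4 RNA of the major spliceosome, had 7.73 in TBBD 2 and 8.57 in DMSO 2 against 6.93 in TBBD 1 and 6.38 in DMSO 1, a difference of 1.49 (adjusted p of 0.0287 by limma). The other calls were RNU5E-1 (1.14), RNU11 (0.86) and VTRNA1-1 (0.86). TERC, the H/ACA RNA of telomerase, differed by -0.28 and RMRP, the RNA of RNase MRP, by 0.16, and neither was called. DMSO 1 was the lowest array for 12 of the 19, against 23.0% of all genes, and TBBD minus DMSO had a median of 0.25 with number 1 and -0.13 with number 2.

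The 79 probesets that name a snoRNA beside other symbols, and so lay outside the 185 members, had levels from 5.44 to 12.6 with a median of 7.83. Their replicate 2 minus replicate 1 differences ran from -0.92 to 1.06 with a median of 0.02, and 43 of the 79 were higher in replicate 2. At 14q32, DLK1 and RTL1 were called higher in replicate 2 by 3.93 and 0.92, while MEG3 differed by -0.04 and the 4 SNORD114 genes had a median of 0.02.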
